A study of Mus musculus with 9 samples.

Results

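Cytokines, chemokines and their receptors were followed as a family of 170 genes among the 16637 genes that could be named on mouse hippocampus arrays. A gene belonged to the family when its symbol, as annotated or as updated, began with Ccl, Ccr, Cxcl, Cxcr, Il or Tlr before a digit, began with Tnfsf or Tnfrsf, or was Tnf or Ifng. The rule took 202 of 29922 probes, and 28 of the genes had several probes. For 9 of the 202 probes the symbol was updated, and some of these, such as Cxcr7 (now Ackr3), matched only as annotated. It is a rule on names, so it also took Il4i1, which encodes an amino acid oxidase, and Il18bp, which encodes a decoy that binds interleukin-18. By role there were 30 chemokine ligands, 17 chemokine receptors, 42 interleukins with interferon gamma, 38 interleukin receptors, 11 TNF superfamily ligands, 20 TNF receptors and 12 Toll-like receptors.

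Cytokines are secreted or membrane-bound messengers that immune cells, glia and neurons use to signal to each other, and chemokines are those that guide migrating cells. Their receptors pass the signal on through Janus kinases and STAT factors, through G proteins, or through adaptors that end at NF-kappaB, and Toll-like receptors feed the same NF-kappaB route from microbial and damage signals. In brain the messages are mostly held at low levels and are induced in microglia and astrocytes, for example around amyloid plaques, whereas a few members such as Cxcl12, Il34 and Il33 are made by resting brain cells.

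RNA came from 1 hippocampus of each of 8 female mice, and 9 two-colour arrays set a test mouse against a reference mouse. The 4 groups held 2 mice each: wild-type (WT) mice of strain 129SV with C57BL6 at 3 and at 12 months, and 3xTG mice, labelled B6;129Psen1tm1Mpm Tg (APPSwe,tauP201L) 1Lfa, at 3 and at 12 months. The 3xTG line carries a mutant presenilin 1 allele in place of the mouse gene and human APP and tau transgenes under Thy1 control, which drives them mainly in neurons. Each of 3 comparisons had 3 arrays: WT at 12 over 3 months, 3xTG over WT at 3 months, and 3xTG over WT at 12 months. WT ageing shares its 3-month mice with the first genotype comparison and its 12-month mice with the second, so the comparisons are not independent, and arrays of a comparison share mice too. In bulk tissue fewer cells of a type and less RNA per cell cannot be told apart.

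Values are log2 ratios of test over reference, relative to the median of all values listed on the same array, so that 0 is the array's median and not equal expression. The authors' table lists no ratio between -0.5 and 0.5. That gap and the range of the values are the basis for reading them as log2, since no label names the base. Arrays listed 13683 to 16191 probes, and deposited medians ran from -1.71 to 2.34. The direction is likely rather than settled: arrays of 1 comparison but opposite dyes correlated at 0.197 to 0.308 across all probes, while nothing but the labels fixes the overall sign. Ratios carry no level, so neither the expression of a member nor the purity of the dissection could be checked from defining markers, and signal over background is unknown.

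Promoters are shown for 3 members on which the account turns or which illustrate the family. Il6st (gp130, the signalling subunit shared by receptors of the interleukin-6 family) lay on one side of 0 at 3 months and on the other at 12. Il16 encodes a ligand of CD4 and lay below 0 by over 2 on every WT ageing array. Cxcl10 is a chemokine ligand of Cxcr3 and a classical interferon target. Each sequence runs 5' to 3' along the gene's own strand from 250 bases before the annotated start to 50 after it, from RefSeq on GRCm38.p6. Il6st lies at chr13:112463820-112464119 on the plus strand, Il16 at chr7:83735490-83735789 on the minus strand (the outermost of 3 entries) and Cxcl10 at chr5:92348840-92349139 on the minus strand. Capitals mark matches, on either strand, to the STAT motif TTCNNNGAA, the interferon-stimulated response element (GAAA, any 2 bases, GAAA) or the NF-kappaB consensus.
Il6st: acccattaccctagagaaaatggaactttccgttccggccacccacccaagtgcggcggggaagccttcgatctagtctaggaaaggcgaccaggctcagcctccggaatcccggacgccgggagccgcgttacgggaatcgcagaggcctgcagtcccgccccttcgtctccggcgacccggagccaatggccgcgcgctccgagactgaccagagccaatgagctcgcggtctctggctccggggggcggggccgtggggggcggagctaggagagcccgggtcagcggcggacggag
Il16: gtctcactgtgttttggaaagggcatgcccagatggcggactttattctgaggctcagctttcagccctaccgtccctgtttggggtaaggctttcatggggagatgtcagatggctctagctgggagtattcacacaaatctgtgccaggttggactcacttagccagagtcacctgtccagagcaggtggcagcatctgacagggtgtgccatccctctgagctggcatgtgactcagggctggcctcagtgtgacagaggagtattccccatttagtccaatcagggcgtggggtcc
Cxcl10: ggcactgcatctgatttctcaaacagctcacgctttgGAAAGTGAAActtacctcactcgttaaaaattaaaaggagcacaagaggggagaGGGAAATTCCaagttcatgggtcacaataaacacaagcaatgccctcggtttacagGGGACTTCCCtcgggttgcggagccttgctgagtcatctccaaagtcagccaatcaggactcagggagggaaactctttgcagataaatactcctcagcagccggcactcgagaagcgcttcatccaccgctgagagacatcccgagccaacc
The Cxcl10 window held 1 interferon-stimulated response element, starting 213 bases before the start, and 2 NF-kappaB matches, starting 159 and 103 bases before it. The other two windows held none of these letters. The STAT, interferon and NF-kappaB motifs occurred in 8.33, 3.45 and 4.53% of all 32544 promoter entries. Of the 131 members with an entry, 24 (18.3%) had a STAT match, 11 (8.4%) an interferon match and 19 (14.5%) an NF-kappaB match, against 9.55, 3.99 and 5.14% of the 27025 genes with an entry. These are descriptions of letters in a window, not of binding.

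No member passed the test in any comparison. A gene was tested when no comparison missed it on more than 1 of its 3 arrays, a filter that 27 of the 170 members passed. limma called 0 of 3944 genes (0%) at an adjusted p of 0.05 in WT ageing, in 3xTG over WT at 3 months, at 12 months, and in the difference of the genotype effects between the ages. At an unadjusted p under 0.05 stood 3 of 27 members (11.1%) in WT ageing, where 14.1% of all genes tested did. The same was true of 2 members (7.41%) against 16.8% of genes at 3 months, and of 4 members (14.8%) against 18.1% at 12 months. For the difference between the ages it was 1 member against 9.43% of genes. The members' shares were below those of all genes each time, so these values are reported as descriptions and nothing below is called higher or lower.

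Agreement between arrays was used to ask whether the family rose above scatter. In WT ageing 151 members were listed on at least 1 array and 31 on all 3. Of these 31, 5 (16.1%) had one sign on all 3 arrays, against 38.9% of all genes so listed; 2 lay above and 3 below 0, against 15.6 and 23.3% of genes. In 3xTG over WT at 3 months 139 members were listed and 22 on all 3 arrays, of which 7 (31.8%) had one sign, against 48.2% of genes. These were 5 above and 2 below, against 28.4 and 19.8%. At 12 months 144 were listed and 22 on all 3, of which 7 (31.8%) had one sign, against 46.7% of genes. These were 1 above and 6 below, against 30.4 and 16.3%. For comparison, 832 genes of olfactory, vomeronasal and taste receptor and keratin-associated families, which a hippocampus is unlikely to express, had one sign in 28.9, 27.8 and 33.0% of cases. Genes of ribosomes, the respiratory chain, proteasome and glycolysis, which are abundant, had it in 57.5, 68.2 and 90.2%. In the genotype comparisons the members' shares were nearer those of the families unlikely to be expressed than those of all genes. The limma shares at an unadjusted p under 0.05 were 3.7, 4.94 and 7.41% of 81 tested genes of those families. For the 27 members they were 11.1, 7.41 and 14.8%, and for 51 abundant transcripts 13.7, 21.6 and 27.5%.

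The counts depended on where 0 was set, because a shift of a whole array puts most genes on one side. Without centring 22 of 31 members (71.0%) had one sign in WT ageing, 21 of them above 0, against 66.9% of all genes and 59.8% of the families unlikely to be expressed. Centred on abundant transcripts, 11 members (35.5%) did in WT ageing, 4 (18.2%) at 3 months and 15 (68.2%) at 12 months, all 15 below 0, against 45.0, 48.1 and 56.7% of all genes. The families unlikely to be expressed had 33.0, 25.3 and 64.1% there. In WT ageing without centring, and at 12 months relative to abundant transcripts, the members' share was thus above that of all genes; in the other settings it was below it.

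**Figure D1:**
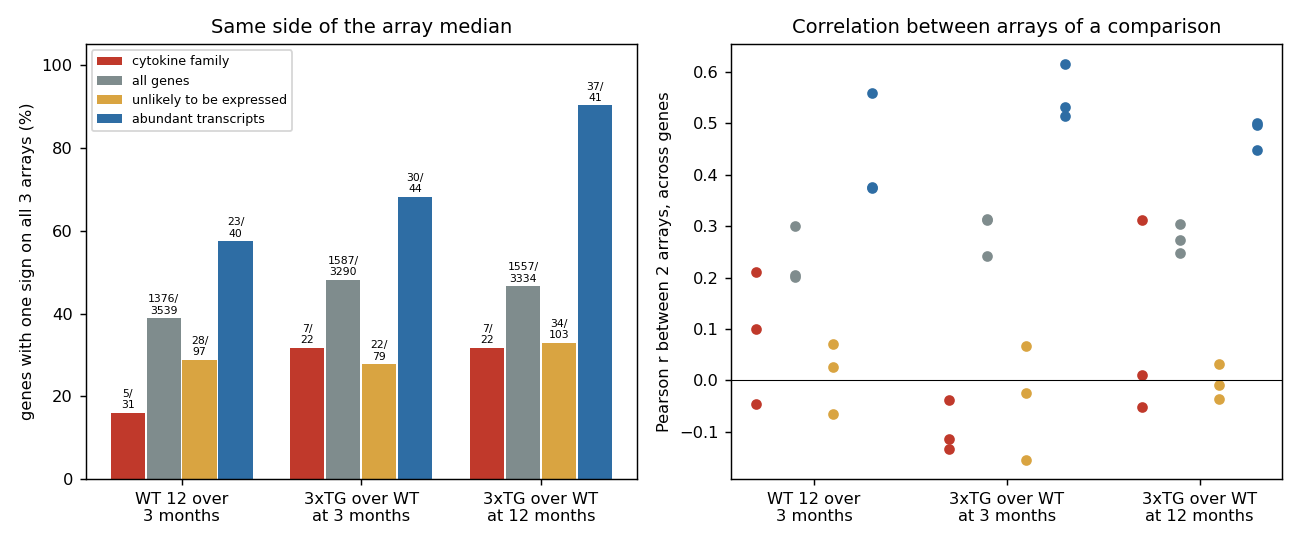
Left, share of genes listed on all 3 arrays of a comparison whose values all fell on the same side of 0 (%), for the cytokine family, all genes, families unlikely to be expressed and abundant transcripts, with the counts above each bar. Right, Pearson correlations across genes between the 3 pairs of arrays of each comparison, where the cytokine family (red) ran from -0.133 to 0.313 and abundant transcripts (blue) from 0.375 to 0.616.

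Member values correlated weakly between most pairs of arrays. Pearson correlations across the members listed on both arrays of a pair were 0.101, 0.210 and -0.045 in WT ageing, over 45 to 55 members. They were -0.133, -0.114 and -0.039 at 3 months over 34 to 44 members, and 0.010, -0.051 and 0.313 at 12 months over 39 to 50. The 2 highest, 0.210 and 0.313, were as large as those of all genes on the same pairs, 0.201 and 0.248, and the other 7 were lower. All genes gave 0.201 to 0.315 over the 9 pairs, and families unlikely to be expressed gave -0.154 to 0.071. These are correlations across genes of arrays that share mice, amplification and platform, and genes are not independent replicates. The median SD of a member over the 3 arrays was 1.66, 1.77 and 1.83 log2 units, against 1.28, 1.34 and 1.28 for all genes. Different probes of 1 member on the same array correlated at 0.227 over 79 such pairs, and 44 of the pairs (55.7%) lay on the same side of 0. For all genes it was 0.083 over 11772 pairs and 52.9%. The families unlikely to be expressed gave 0.072 over 62 pairs and 51.6%, and abundant transcripts 0.247 over 122 pairs and 55.7%. The members' correlation was nearer that of the abundant transcripts, but it rests on 79 pairs. The shares on the same side differed little between all these sets. Member probes were listed on a median of 4 of the 9 arrays, none was listed on all 9, and 46.1% of them were listed per array, as were 48.6% of all probes.

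The median of the members' means was 0.52 in WT ageing, where that of all genes was -0.04. It was -0.36 at 3 months and -0.41 at 12 months, where all genes lay at -0.03 and 0.22. Single arrays gave member medians of 0.07, 0.71 and 0.50, then -0.01, -0.18 and -0.44, then -0.52, -0.39 and -0.84. The families unlikely to be expressed had medians on the same sides, 0.28, -0.47 and -0.46, and the abundant transcripts lay on the other, at -0.51, 0.37 and 1.80. The part of that pattern in the members' medians was not tested. Without array 3 the 3-month median was -0.12. Centred on the abundant transcripts instead of all probes, the members' medians were 1.01, -1.11 and -2.02, with all genes at 0.53, -0.76 and -1.42. Without centring they were 2.49 in WT ageing and -1.55 at 12 months, with all genes at 1.88 and -0.95.

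**Figure D2:**
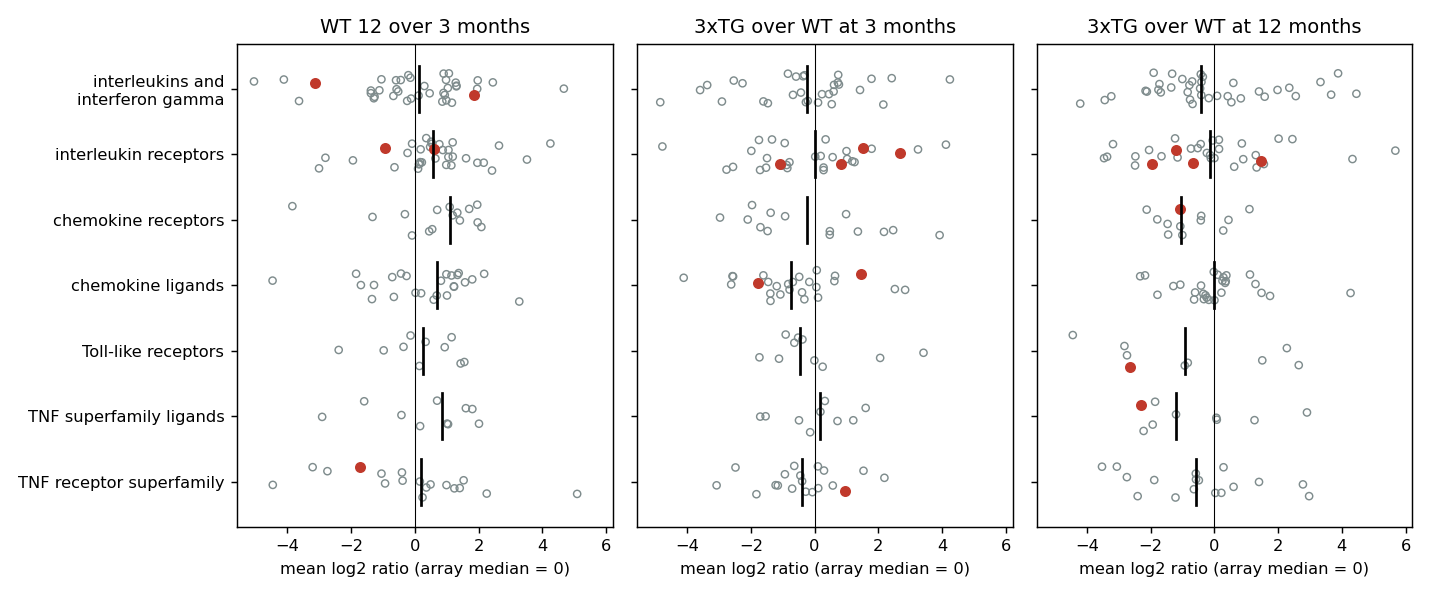
Mean log2 ratio of each member over the arrays that listed it (horizontal axis, array median = 0), by role and comparison; black bars are medians. Filled red points are members listed on all 3 arrays with one sign, 5, 7 and 7 in the 3 panels, and open grey points are the others.

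Among chemokine ligands, those listed on all 3 arrays had one sign in 0 of 4 cases in WT ageing, 2 of 2 at 3 months and 0 of 3 at 12 months. Cxcl12, which holds Cxcr4-bearing progenitors and interneurons in place, was at 0.79, 3.25 and 0.35 in 3xTG over WT at 3 months. These lay above 0, but the spread between them was as large as their mean of 1.46 ± 1.57 (SD, n = 3 arrays). Its limma estimate was 1.43 ± 1.08 (SE, adjusted p = 0.525), and at 12 months the arrays fell on both sides, at -1.19, -0.12 and 2.38. No genotype array listed both of its probes, so the 3-month values mix probes. Ccl7, a ligand that draws monocytes, was at -2.48, -1.06 and -1.80 at 3 months, a mean of -1.78 ± 0.71 (SD). All 3 arrays lay below 0 for Ccl7, also without centring; it was listed too seldom for the test, and with the filter applied to that comparison alone limma gave -1.98 ± 0.84 (SE, adjusted p = 0.34).

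The ligands most often followed in Alzheimer models were listed on few arrays. Ccl2, the main monocyte chemokine, was at 2.55 and 1.81 on the WT ageing arrays that listed it and at 3.34 and 2.34 on those of genotype at 3 months, and no 12-month array listed it. All 4 of its values lay above 0, with 1 array missing in each comparison. Cxcl10 was at -0.45 and 2.75 in WT ageing, at 0.64 on 1 array at 3 months, and at 3.61 and -1.37 at 12 months, on both sides of 0. Cxcl9 and Cxcl16 were picked out after their values were seen, as the ligands at an unadjusted p under 0.05. Cxcl9, an interferon-induced ligand of Cxcr3, was at 3.21 and 3.35 in WT ageing (limma 3.28 ± 1.11 SE, adjusted p = 0.246). Cxcl16, a membrane-bound ligand of Cxcr6, was at -1.94 and -3.21 at 3 months (limma -2.57 ± 0.95 SE, adjusted p = 0.251). Each rests on 2 arrays. The 2 probes of Cxcl16 lay on opposite sides of 0 on both arrays, at -4.22 and 0.35 on the first and at -8.19 and 1.77 on the other, so its mean describes neither probe.

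Chemokine receptors had one sign in 0 of 4 cases in WT ageing, 0 of 1 at 3 months and 1 of 1 at 12 months. That one was Cxcr2, the neutrophil receptor for Cxcl1 and its relatives, at -1.16, -0.67 and -1.45 in 3xTG over WT at 12 months. The arrays were close to each other, at a mean of -1.09 ± 0.40 (SD, n = 3), but the limma estimate of -1.13 ± 1.12 (SE, adjusted p = 0.634) carries the gene's wider spread in the other comparisons. Cxcr2 was at 4.18 and -0.24 in WT ageing and at 0.235 and -2.99 at 3 months. Cxcr3, named after its values were seen, was at 2.49, -7.51 and 1.04 in WT ageing. Cxcr4, the Cxcl12 receptor, was at -0.73, -1.01 and 1.49 there and was listed on no genotype array.

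Of interleukins and interferon gamma listed on all 3 arrays, 2 of 8 had one sign in WT ageing and 0 of 4 in each genotype comparison. Il16 was at -3.51, -3.36 and -2.56 in WT ageing, a mean of -3.14 ± 0.51 (SD, n = 3), and stayed below 0 without centring at -2.09, -1.02 and -0.60. Of the members with one sign on all 3 arrays in that comparison it lay farthest from 0, yet it was outside the test, since only 1 array listed it at 12 months (2.55). With the filter on WT ageing alone, limma gave -3.25 ± 0.89 (SE, adjusted p = 0.204). At 3 months it was at -2.25 and -0.68. Il1f5, an antagonist of the interleukin-36 receptor, was at 0.52, 1.94 and 3.13 in WT ageing, above 0 on all arrays but with a wide spread; it too was outside the test.

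The classical inflammatory cytokines gave no shared direction. Il1b was at -2.14, 0.34 and -0.22 in WT ageing, at -0.43 on 1 array at 3 months, and at -0.56, 0.08 and -1.56 at 12 months. Il6 was at 1.04 on 1 WT ageing array, at -0.10 and -4.42 at 3 months, and at 4.71, 1.64 and -2.16 at 12 months. Tnf was at 0.17 on 1 WT ageing array, at 1.60 on 1 array at 3 months, and at -0.18 and 0.30 at 12 months. None of the 3 had one sign in a comparison that listed it on all arrays, and Tnf was never so listed.

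Interleukin receptors had one sign in 2 of 5 cases (40.0%) in WT ageing, 4 of 7 (57.1%) at 3 months and 4 of 8 (50.0%) at 12 months, near the 38.9, 48.2 and 46.7% of all genes. Il10rb, the subunit shared by receptors for interleukin-10, interleukin-22 and interferon lambda, was at 2.96, 1.72 and 3.38 in 3xTG over WT at 3 months. All 3 arrays stood well above 0, at a mean of 2.69 ± 0.86 (SD, n = 3), and also without centring at 3.80, 0.89 and 4.34. The limma estimate was 2.80 ± 0.79 (SE, adjusted p = 0.168), which missed the threshold. Read as Cy5 over Cy3, the direction that the labels make less likely, it was 0.18 ± 1.15 (SE, limma adjusted p = 0.999). That reading reverses the arrays with test RNA in Cy3, so values that lay on one side largely cancel. In WT ageing Il10rb was at 0.42, 1.31 and 0.037, and at 12 months at 0.018 and 0.27, near the median. The difference between the ages was -2.43 ± 1.24 (SE, limma adjusted p = 0.549).

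Il6st was the only one of the 6 members listed on all 6 genotype arrays to have one sign at 3 months and the other at 12, and none had one sign on all 6. Over all genes so listed, 6.43% of 1135 turned in this way and 24.9% kept one sign. It was at -0.57, -0.95 and -1.73 at 3 months and at 1.57, 1.82 and 1.04 at 12 months, so the arrays of the 2 ages did not overlap. The means were -1.08 ± 0.59 and 1.48 ± 0.40 (SD, n = 3 arrays each). limma gave -1.17 ± 0.74 (SE, adjusted p = 0.446) and 1.40 ± 0.73 (SE, adjusted p = 0.338), and 2.57 ± 1.02 (SE, adjusted p = 0.510) for the difference. In WT ageing it was at 2.15 and 1.78.

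The Il6st pattern depended on probes and on centring. Its 2 probes stood at -1.79 and 0.66 on the first 3-month array, and the mean of -0.57 hides that split. Without centring the 3-month arrays were at 0.28, -1.78 and -0.77 and the 12-month arrays at 0.70, 0.95 and -0.67, on both sides of 0 at each age. With arrays centred on the abundant transcripts the 12-month estimate was -0.25, on the other side of 0. Without centring the difference between the ages was 1.03 ± 1.16 (SE, limma adjusted p = 0.747), and with 1 probe per gene 1.81 ± 1.26 (SE, limma adjusted p = 0.746).

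The other interleukin receptors with one sign included lymphocyte and epithelial receptor chains. Il2rg, the common gamma chain of lymphocyte receptors, was at 2.03, 2.26 and 0.26 at 3 months, and Il10ra at 2.05, 0.028 and 0.40. Both lay above 0, each with 1 array close to it, and without centring 1 array of Il10ra lay below it. At 12 months Il22ra1, an interleukin-22 receptor chain found mainly on epithelial cells, was at -0.77, -2.58 and -2.53 (limma with the filter on that comparison alone -2.16 ± 0.86 SE, adjusted p = 0.284). Il2ra, the high-affinity chain for interleukin-2, was at -0.48, -1.30 and -0.19, and Il31ra, a receptor for the itch cytokine interleukin-31, at -2.20, -0.009 and -1.43. These lay below 0 by amounts that varied widely between arrays. In WT ageing Il18r1, which binds interleukin-18, was at -0.18, -1.49 and -1.18, and above 0 on all 3 arrays without centring.

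**Figure D3:**
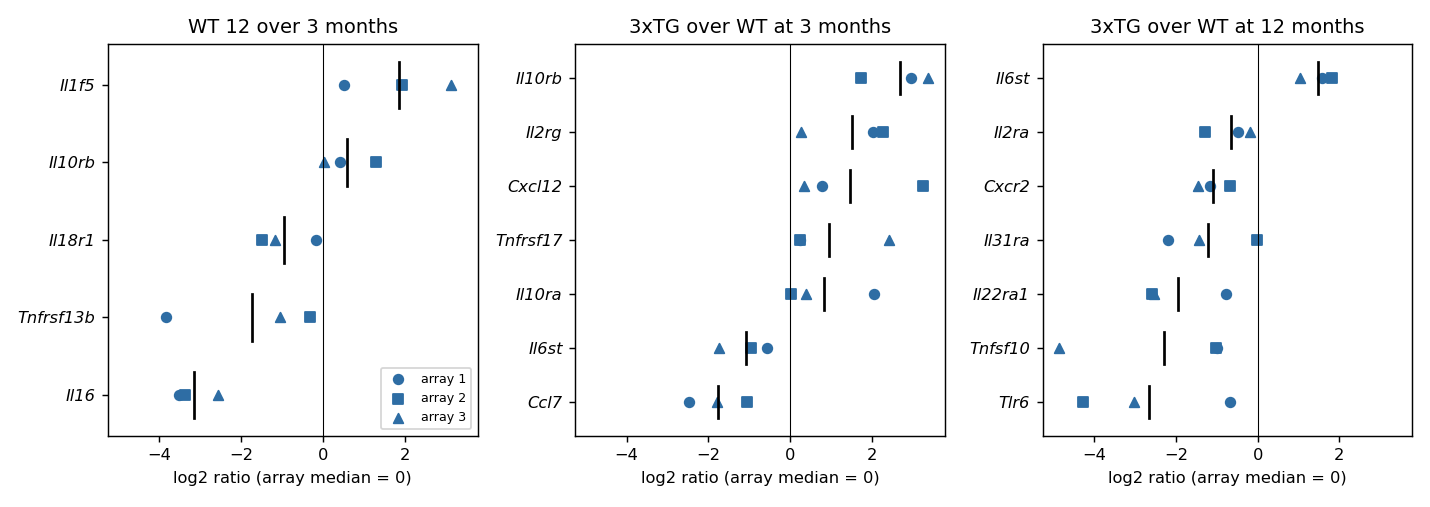
Log2 ratio on each array (horizontal axis, array median = 0; circle, square and triangle are arrays 1, 2 and 3; black bar, mean) of the members with one sign on all 3 arrays of a comparison. Il10rb at 3 months and Il16 in WT ageing had the arrays nearest 0 at 1.72 and -2.56, whereas several others had an array close to 0.

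TNF superfamily ligands had one sign in 0 of 2, 0 of 2 and 1 of 2 cases. Tnfsf10 (TRAIL, which triggers apoptosis through death receptors) was at -1.004, -1.016 and -4.85 in 3xTG over WT at 12 months. All 3 arrays lay below 0, but the probes disagreed on the first, at 0.28 and -2.29, and limma with the filter on that comparison alone gave -2.80 ± 0.85 (SE, adjusted p = 0.208). Tnfsf15, a T-cell costimulator picked out after its values were seen, was at 3.58 and 2.23 on 2 arrays there (limma 2.90 ± 1.16 SE, adjusted p = 0.247).

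TNF receptors had one sign in 1 of 5 cases in WT ageing, 1 of 4 at 3 months and 0 of 2 at 12 months. Tnfrsf13b (TACI, a B-cell receptor for BAFF and APRIL) was at -3.83, -0.30 and -1.04 in WT ageing (limma -2.25 ± 0.89 SE, adjusted p = 0.304) and at -1.45 and -4.04 at 12 months (limma -4.21 ± 1.21 SE, adjusted p = 0.152). These lay below 0, and in WT ageing 2 of the 3 arrays were above 0 without centring. The 12-month values of Tnfrsf13b come from different probes. Both arrays had test RNA in Cy3, and the estimate, from a fit with a dye term, lay beyond both values. At 3 months Tnfrsf13b was at 0.33 and -2.19, on both sides of 0. Tnfrsf17, a receptor of plasma cells, was at 0.24, 0.23 and 2.41 at 3 months, and 1 of these was below 0 without centring. Tnfrsf1b, the TNF receptor found mainly on microglia and lymphocytes, was picked out after its values were seen. It was at -0.64 and -4.17 at 12 months (limma -2.41 ± 0.93 SE, adjusted p = 0.231). At 3 months it was at 2.14 and 2.24, each from a different probe (limma 0.68 ± 1.20 SE, adjusted p = 0.813). Tnfrsf1a, the widely expressed TNF receptor, was at 3.13 and -4.30 on the 12-month arrays that listed it, on opposite sides.

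Toll-like receptors had one sign in 0 of 3, 0 of 2 and 1 of 2 cases. Tlr6, which pairs with Tlr2 on lipopeptides, was at -0.67, -4.27 and -3.03 at 12 months, a mean of -2.66 ± 1.83 (SD, n = 3), with all arrays below 0 (limma -2.95 ± 0.98 SE, adjusted p = 0.166). Its partner Tlr2 was at 2.32 and 0.69 there, at -2.24 and 1.21 at 3 months and at 0.26 and -0.97 in WT ageing. Tlr4, the endotoxin receptor, was at -1.28, 2.10 and -3.32 at 12 months, at -4.33, -1.05 and 0.20 at 3 months and at 0.95 and -0.26 in WT ageing. No comparison listed Tlr2 on all 3 arrays, and its 2 values lay on one side only at 12 months; Tlr4 lay on both sides of 0 in each comparison. Tlr3, picked out after its values were seen, shows the width of the scatter at 3 months with -1.90, 7.33 and -4.67.

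Genes that carry the signal beyond these receptors were taken from 8 lists with 122 genes: further chemokine ligands and receptors, further cytokines and receptors, Toll and TNF adaptors, NF-kappaB, JAK-STAT and interferon factors. Of these, 29 were tested and limma called 0 in each comparison, with 6, 4 and 5 at an unadjusted p under 0.05, where 14.1, 16.8 and 18.1% of all genes tested stood. One sign was seen for 10 of 23 (43.5%), 6 of 19 (31.6%) and 9 of 23 (39.1%) of those listed on all 3 arrays, against 38.9, 48.2 and 46.7% of all genes. Stat3, the factor that gp130 activates, was at -1.48, -6.28 and -2.99 in WT ageing, at -2.34, -1.79 and -2.67 at 3 months and at 2.28, 1.70 and 2.21 at 12 months. All arrays of a comparison lay on one side for Stat3, below 0 in WT ageing and at 3 months and above it at 12 months, and its difference between the ages was 4.31 ± 1.29 (SE, limma adjusted p = 0.474). Jak1, a kinase bound to gp130 and to the interleukin-10 receptor, was at 2.80, 2.92 and 3.92 at 3 months and at 2.20, 2.56 and 2.84 at 12 months. Of the 8 pathway genes listed on all 6 genotype arrays it was the one that lay on the same side on each, as did 24.9% of all genes so listed (limma 3.19 ± 0.92 SE, adjusted p = 0.170 at 3 months, and 2.51 ± 0.92 SE, adjusted p = 0.19 at 12 months). Stat5b, a factor of growth hormone and interleukin-2 signalling, ran the other way to Stat3: it was at 2.67, 1.25 and 1.41 in WT ageing (limma 1.88 ± 0.80 SE, adjusted p = 0.338), at 4.41 and 3.71 on 2 arrays at 3 months (limma 4.06 ± 0.90 SE, adjusted p = 0.127) and at -1.44 and -0.82 on 2 arrays at 12 months. Its difference between the ages was -5.19 ± 1.27 (SE, limma adjusted p = 0.468), the larger of the pair. In WT ageing Tyk2, another such kinase, was at -3.27, -2.99 and -3.37 (limma -3.30 ± 0.79 SE, adjusted p = 0.129). Unlike Jak1, it lay below 0 on each genotype array that listed it. It was at -2.40 and -1.51 at 3 months (limma -2.30 ± 1.13 SE, adjusted p = 0.349). At 12 months it was at -1.815 and -3.12 (limma -2.46 ± 0.93 SE, adjusted p = 0.211). Cx3cl1 (fractalkine, the neuronal ligand for microglia) was at -2.37, -1.59 and -1.79 at 3 months (limma -1.79 ± 0.83 SE, adjusted p = 0.324), and at 2.43 and 1.38 at 12 months. Csf1r, the receptor that keeps microglia alive, was at -0.92, -2.81 and -0.57 at 12 months (limma -1.24 ± 1.21 SE, adjusted p = 0.628).

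The inner signalling genes named by the same rule also missed the threshold. Birc2, a ubiquitin ligase of TNF receptor complexes, was at -1.96, -1.70 and -5.66 in WT ageing (limma -3.00 ± 1.02 SE, adjusted p = 0.205) and at -0.85, -0.87 and -0.39 at 3 months. Traf6, which relays Toll and interleukin-1 signals, was at 2.41, 1.26 and 0.56 in WT ageing (limma 1.40 ± 0.91 SE, adjusted p = 0.592), and Traf5 at -3.41, -0.99 and -3.08. Rela, the main transactivating NF-kappaB subunit, was at -5.22, -1.60 and -5.50 there, with 1 array above 0 without centring. At 12 months Nfkb2, another NF-kappaB subunit, was at -0.58, -0.62 and -4.33 and Traf4 at -1.97, -1.38 and -2.21. Cflar, which blocks caspase activation at death receptors, was at 0.29, 0.77 and 2.38 there but at -0.34 in the fit centred on abundant transcripts, against 1.31 ± 0.73 (SE, limma adjusted p = 0.365) otherwise. Socs2, a feedback inhibitor of JAK-STAT signalling, was at 4.74, 2.72 and 0.92 at 3 months (limma 2.76 ± 1.11 SE, adjusted p = 0.271) and Irf1, an interferon-induced factor, at 1.08, 1.44 and 2.93 (limma 1.94 ± 0.89 SE, adjusted p = 0.312). On the 12-month arrays that listed them Socs2 was at 2.36 and 2.68 (limma 2.52 ± 1.26 SE, adjusted p = 0.321). Irf1 was at 4.39 and 3.325 there (limma 4.16 ± 1.19 SE, adjusted p = 0.15). Jak3, the kinase of the common gamma chain, was at -0.92, -0.77 and -0.42 at 12 months (limma -0.66 ± 0.76 SE, adjusted p = 0.684). Ifngr2, a chain of the interferon gamma receptor, was at 2.74, 2.16 and 0.84 at 12 months, and Tnip1, an inhibitor of NF-kappaB signalling, at -0.41, -1.11 and -0.72. In WT ageing Stat4, a factor of interleukin-12 signalling, was at 0.77, 0.62 and 1.22 and Mx1, an interferon-induced GTPase, at 0.58, 0.51 and 1.44. The genes named beyond the receptors were picked by direction, up to 2 on each side per list. That they lay on both sides of 0 in each comparison follows from this choice.

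**Figure D4:**
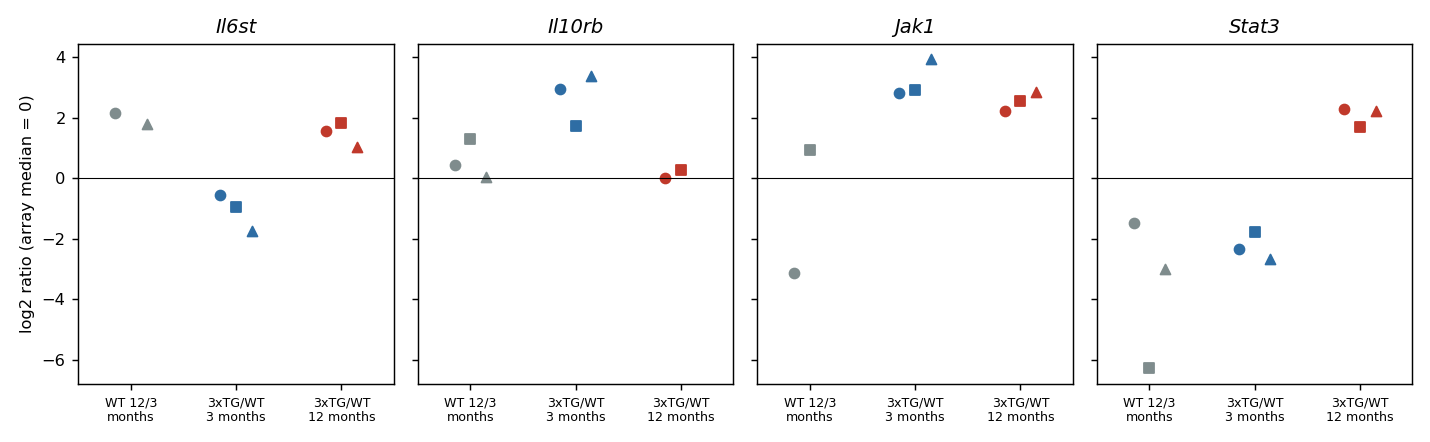
Log2 ratio on each array (vertical axis, array median = 0; circle, square and triangle are arrays 1, 2 and 3) of the receptor subunits Il6st and Il10rb, the kinase Jak1 and the factor Stat3 in WT ageing (grey), 3xTG over WT at 3 months (blue) and at 12 months (red). Il6st and Stat3 lay below 0 at 3 months and above it at 12 months, and Jak1 lay above 0 on all 6 genotype arrays.

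Markers of the cells that could carry these transcripts were set beside them. Of 18 microglial markers, those listed on all 3 arrays had one sign in 2 of 6, 3 of 6 and 5 of 7 cases (0, 2 and 3 above; 2, 1 and 2 below), with medians of 0.21, -0.58 and 0.99. Of 8 T-cell markers 0 of 3, 0 of 1 and 4 of 4 had one sign, at 12 months 1 above and 3 below, with medians of -0.06, 0.06 and -1.58. The 5 B-cell markers were never listed on all 3 arrays and had medians of 0.69, 0.75 and -0.99, and the 5 neutrophil and monocyte markers had 0.68, -0.75 and -1.41. Medians for endothelium were -2.75, 0.02 and -0.41, for choroid plexus -0.88, 1.11 and 0.42, for astrocytes -0.13, 0.59 and 1.83, for oligodendrocytes -1.14, 0.96 and 1.21, and for neurons -2.56, -1.41 and 0.68. These medians take in markers listed on fewer than 3 arrays and can differ in side from those listed on all 3. Neuron markers listed on all 3 had one sign in 2 of 3, 4 of 4 and 1 of 2 cases, with 1, 3 and 1 above 0. For endothelium it was 1 of 1 (above) in WT ageing and 2 of 2 (below) at 3 months. The red cell marker was at -1.97 and -0.69 in WT ageing and at 12 months and was not listed at 3 months. The part of any of these cells in the members' values was not tested.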

How the data were processed

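The series measured linearly amplified hippocampal RNA on 9 two-colour arrays. The deposited values, made by the authors, were read as log2 ratios of test over reference for 29922 probes; the log base, scanner, background correction, filter and normalization were not stated in any source used here. Scanner intensities were not used here. No size under 0.501 is listed, and about as many probes are missing as listed, so small and failed ratios look alike. Array medians were far from 0, so each array was centred on its median. Of the probes, 21020 had 1 gene symbol, 8902 none and 0 several; 2728 of 16675 symbols were updated through RefSeq of GRCm38.p6, and probes of a gene were averaged.

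Gene means were fitted by generalised least squares in limma 3.58.1 (R 4.3.3), with a coefficient per comparison, a dye term (test RNA in Cy5 on 3 arrays, Cy3 on 6) and a covariance from shared mice (variance ratio 0.115, estimated on 516 genes listed on all arrays). Of 3980 genes that passed the filter on missing values 3944 could be fitted; eBayes and Benjamini-Hochberg adjustment followed, with a threshold of 0.05. The design text counts 6 biological and 3 technical replicates, so p-values partly measure technical spread. The fits were tested on simulated data.

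Members named are those past the threshold and, in each comparison and direction, up to 6 with one sign on all 3 arrays, ranked by the array value nearest 0. Members with one sign on all 6 genotype arrays and Tnf, Il1b, Il6, Ccl2, Cxcl10, Tlr2 and Tlr4 were also to be named, and up to 2 genes per direction of each pathway list. The members and lists were chosen with earlier results of these data known. Alternatives covered centring, covariance, dye, the filter, probes, the replicate number, slide, direction and each array left out. The number of arrays limits the precision.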

Additional observations from a re-analysis of the deposited data

Results flagged for a closer look

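The genotype effect on Il6st, gp130, differed between the ages by 2.57 ± 1.02 log2 units (SE, limma adjusted p = 0.510), with all 3 arrays below 0 at 3 months and all 3 above it at 12 months after centring. That of Stat3, the factor downstream of gp130, differed by 4.31 ± 1.29 (SE, limma adjusted p = 0.474), with the same 2 sides. The JAK-STAT list as a whole did not share this direction. In it Stat5b differed by -5.19 ± 1.27 (SE, limma adjusted p = 0.468) and Cish by -3.69 ± 1.40 (SE, limma adjusted p = 0.510). Socs7 differed by 3.46 ± 1.45 (SE, limma adjusted p = 0.528). Outside that list Cx3cl1 differed by 4.19 ± 1.31 (SE, limma adjusted p = 0.496). All of these differences missed the adjusted threshold, and each rests on 2 mice per group. In WT ageing Il6st and Stat3 lay on opposite sides of 0, at 1.98 ± 0.87 (SE, limma adjusted p = 0.348) and -3.45 ± 0.93 (SE, limma adjusted p = 0.138). No comparison had the 4 arrays needed to look for an outlying array.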

How the results depend on the processing

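No member was called in any of 75 results of alternative fits. Each comparison, and the difference between the ages, counts here as a result of its own. The smallest adjusted p of a member in limma was 0.101. Over all genes, limma called 35 in WT ageing and 23 at 3 months with arrays taken as independent, 47 and 11 without a dye term, and 17, 27 and 20 (the last at 12 months) among the 516 genes listed on all arrays, of which 3 were members. Each other fit called 0 genes; leaving out each array in turn gave 0 to 0 calls, with 406 to 538, 318 to 647 and 513 to 726 genes at an unadjusted p under 0.05, and 269 to 406 for the difference between the ages. The replicate number did not pair the arrays: deviations of same-numbered arrays correlated at -0.053 to 0.084 over 516 genes. With the replicate number as a block limma called 0 of 3124 genes in each comparison (325, 280 and 290 at an unadjusted p under 0.05, 255 for the difference), and Cxcr2 at 12 months and Birc2 at 3 months came out at 1.60 and 0.41. With slides under 70 against over 80 as a block, Traf6 in WT ageing came out at -1.46.

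The members' median kept its sign under each centring and moved with all genes: 2.49 without centring and 1.01 on abundant transcripts in WT ageing, -1.11 on abundant transcripts at 3 months, and -1.55 and -2.02 at 12 months. Leaving out each array in turn gave 0.40 to 0.67, -0.49 to -0.12 (the latter without array 3 at 3 months) and -0.43 to -0.41. Members with one sign numbered 22 without centring and 11 on abundant transcripts in WT ageing, then 4 and 15 on abundant transcripts at 3 and 12 months, where Il6st came out at -0.25 and Cflar at -0.34. Read as Cy5 over Cy3, the members' medians were -0.43, -0.057 and -0.0255 and the members with one sign 8, 3 and 4. That reading turned Cxcl12 (-0.80) and Il6st (0.0026) at 3 months, Il6st (-0.57) and Tlr6 (0.10) at 12 months, and Il6st's difference between the ages (-0.57). It also turned Stat3 (2.20, 0.16 and -0.75, difference -0.91), Birc2 (1.11 in WT ageing, 0.019 at 3 months), Tyk2 (0.044), Socs2 (-1.55), Csf1r (1.14) and Jak3 (0.41). That reading reverses the arrays with test RNA in Cy3, which were most arrays of each comparison. Genes named for one sign on all 3 arrays were thus bound to fall nearer 0 or to turn. The named genes outside the test were picked for one sign too, and 9 of 11 members and 6 of 7 pathway genes changed sign. In WT ageing these members were Il1f5 (-1.52), Il16 (0.80) and Il18r1 (0.83). At 3 months they were Il2rg (-1.34), Il10ra (-0.56) and Ccl7 (0.58), and at 12 months Il22ra1 (0.27), Il2ra (0.53) and Il31ra (0.26). For the same reason these counts are no test of the direction. Il10rb at 3 months (0.18) and Jak1 (0.18 and 0.10) kept their sign near 0. Of 611 alternative values of named genes, 556 kept their sign and their side of the threshold or, where untested, moved by less than the SD. No gene passed the threshold in the main fit, so for tested genes this count follows mainly the sign and not the size. Il10rb in WT ageing, at 0.67 in the main fit and 2.58 without centring, counts as kept.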
